A study of Mus musculus with 10 samples.

Results

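The 10 transcription factor genes described here, Nr4a1, Klf2, Klf4, Cebpb, Irf8, Irf4, Spi1, Mef2c, Pou2f2 and Hes1, are linked to the fate of monocytes. They were chosen by name with earlier results of these data known, so counts over the 10 are descriptions and not independent support. They were matched by gene symbol among the 24421 symbols present in the gene tables of all 10 libraries, and all 10 genes were found and passed the filter on low values. RNA was sequenced from Ly6Chigh monocytes of the spleens of male mice aged 8 to 10 weeks on day 5 after surgery, sorted after magnetic removal of T and B cells by a gate that took in the CD115 receptor and left out Ly6G-positive cells. The groups were WT sham (C57BL/6 mice, chest opened without ligation, 3 libraries), WT MI (C57BL/6 mice, permanent ligation of the left anterior descending artery, 3 libraries) and Foxp3DTR MI (B6.129(Cg)-Foxp3tm3Ayr/J mice with the same ligation, 4 libraries). In Foxp3DTR mice the Foxp3 promoter drives a diphtheria toxin receptor, so that diphtheria toxin (DTX) depletes regulatory T cells (Treg). By the study's account, this depletion was partial in the spleen. DTX was given at 500 ng on days 2 and 1 before surgery and at 250 ng on day 2 after it. All groups received buprenorphine. The study's text describes the WT mice set against Foxp3DTR mice after MI as DTX-treated too, and the labels name no toxin for single WT libraries. Every library was taken as 1 animal, and p-values measure only the spread between these libraries.

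Ly6Chigh monocytes are short-lived cells of the marrow, spleen and blood that enter injured tissue, and some of them convert into patrolling Ly6Clow monocytes. PU.1, encoded by Spi1, and IRF8 set the monocyte programme in progenitors, and KLF4 is needed for monocyte differentiation. C/EBPβ, encoded by Cebpb, and the orphan nuclear receptor NR4A1 are required for Ly6Clow monocytes, and Notch signalling, of which HES1 is a classic target, promotes the conversion. MEF2C is a MADS-box factor of muscle, lymphoid and myeloid cells, POU2F2 (Oct-2) is an octamer-binding factor known best from B cells, KLF2 holds immune cells in a resting state, and IRF4 directs monocytes towards dendritic-like and macrophage fates.

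Depth, inferred from the ratio of coverage to FPKM, ran from 3.13 (WT sham library 2) to 8.40 (WT MI library 3), in units of 1e6 reads. Levels are given as scaled TPM, the deposited TPM divided by a median-of-ratios factor of each library (0.850 to 1.13), which are per length and so can be compared between genes. The 11 markers of Ly6Chigh monocytes (Csf1r, Itgam, Ccr2, Ly6c2 and others) were detected in every library. Their summed level, most of it from the lysozyme gene Lyz2, was lower in Foxp3DTR MI (24464 to 38850 scaled TPM) than in WT MI (42980 to 47791), and none of the 11 passed the test. Ly6c2 itself was at 2176 to 3164 scaled TPM in WT MI and 3250 to 5065 in Foxp3DTR MI. Markers of several other cells moved with the groups. The 11 T cell markers summed to 10.5 to 12.1 scaled TPM in WT MI and to 37.1 to 147 in Foxp3DTR MI. All 11 were higher in each Foxp3DTR library than in any WT MI library, where 9.95% of all genes were. None of the 11 T cell markers passed the test. The 12 neutrophil markers summed to 180 to 518 in WT MI and to 1150 to 2832 in Foxp3DTR MI. Of the 11 tested, 3 rose (Camp, S100a9 and Ngp), where 0.689% of all genes did. Sums in WT MI and Foxp3DTR MI were 33.0 to 71.5 and 84.7 to 194 for NK cell, 5.12 to 15.3 and 32.5 to 110 for plasma cell, 12.8 to 15.7 and 8.77 to 16.0 for B cell, and 62.4 to 96.5 and 26.9 to 38.7 for conventional dendritic cell markers. They were 3.42 to 7.63 and 12.6 to 15.3 for plasmacytoid dendritic cell, of which Ly6d, listed at 0 in all WT MI libraries, rose, and 1.64 to 9.55 and 13.1 to 39.0 for basophil and mast cell markers. Of 5 tested B cell markers, 4 had positive estimates, and Cd79b, the only negative one, fell (-0.78, limma adjusted p = 0.0494). Of 6 tested conventional dendritic cell markers, 3 had positive and 3 negative estimates, and of these Dpp4 fell (-0.74, limma adjusted p = 0.0348). WT sham library 2, the one of lowest depth, was the highest sham library for Nr4a1, Klf2, Klf4, Cebpb, Pou2f2 and Hes1. WT sham library 3 stood apart from the other sham libraries in its marker sums, with 182 for T cell, 226 for plasma cell and 1336 for neutrophil markers. The part of these cells in the results below was not tested. In sorted bulk samples, fewer cells of a kind and less RNA per cell cannot be told apart.

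Foxp3DTR MI was set against WT MI to ask how monocytes differ after infarction when Treg are depleted in part. Genotype differed along with depletion and cannot be told apart from it. In this comparison 9 of the 10 factors had a lower estimate, against 50% of all genes tested. Mef2c fell and was the only factor that passed the test, with an estimate of -0.96 on the log2 scale (SE 0.17, limma adjusted p = 0.0332), where 1.12% of the 12921 genes tested passed and 0.433% passed as lower. Hes1 (-1.46), Cebpb (-1.27), Nr4a1 (-1.06) and Pou2f2 (-0.85) had estimates of similar or larger size that did not pass, with adjusted p of 0.0514 for Hes1 and 0.168 to 0.169 for the other 3 in limma. The median over the 10 factors was -0.67, against 0.00013 over all genes tested. The libraries of the 2 groups did not overlap for 4 factors, Mef2c, Hes1, Nr4a1 and Pou2f2, all lower in Foxp3DTR MI, where 9.05% of all genes were lower without overlap. Together with Cebpb, the same 4 had an unadjusted p under 0.05, a level reached in the lower direction by 8.44% of all genes.

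**Figure D1:**
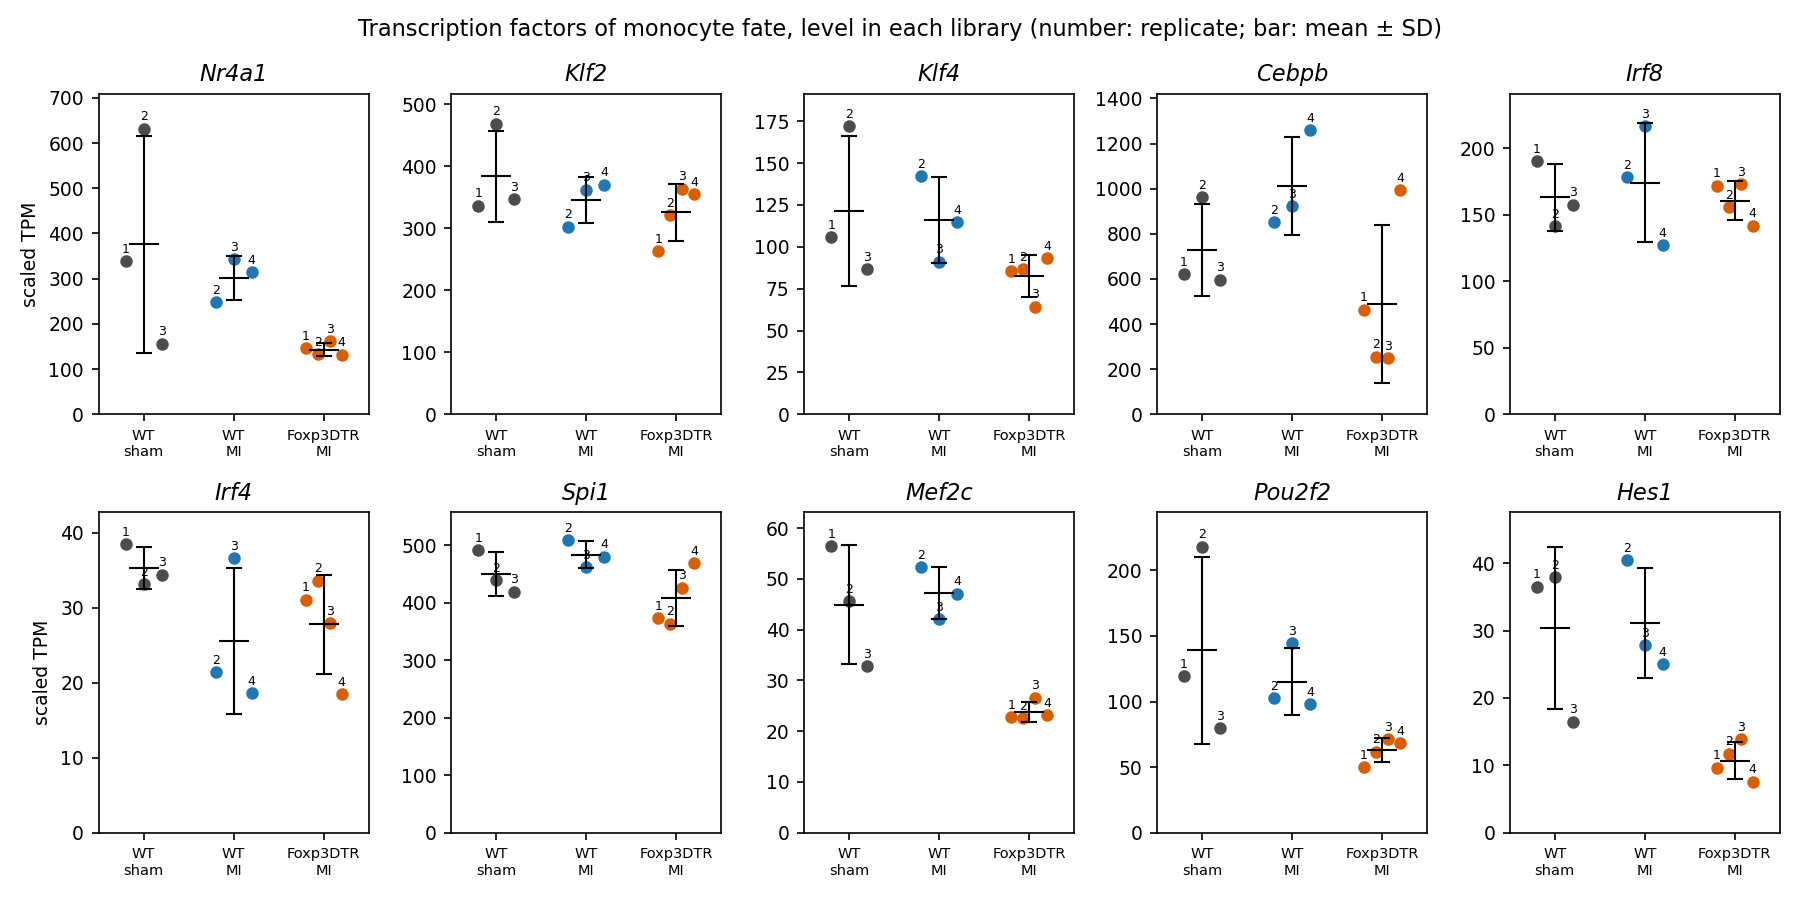
Scaled TPM (vertical axis, from 0) of the 10 factors in each library, by group, with the replicate number at each point and the group mean ± SD as a bar (n = 3, 3 and 4). The 4 Foxp3DTR MI points of Nr4a1, Mef2c, Pou2f2 and Hes1 lie below all 3 WT MI points, and those of Klf2, Irf8 and Irf4 overlap them.

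**Figure D2:**
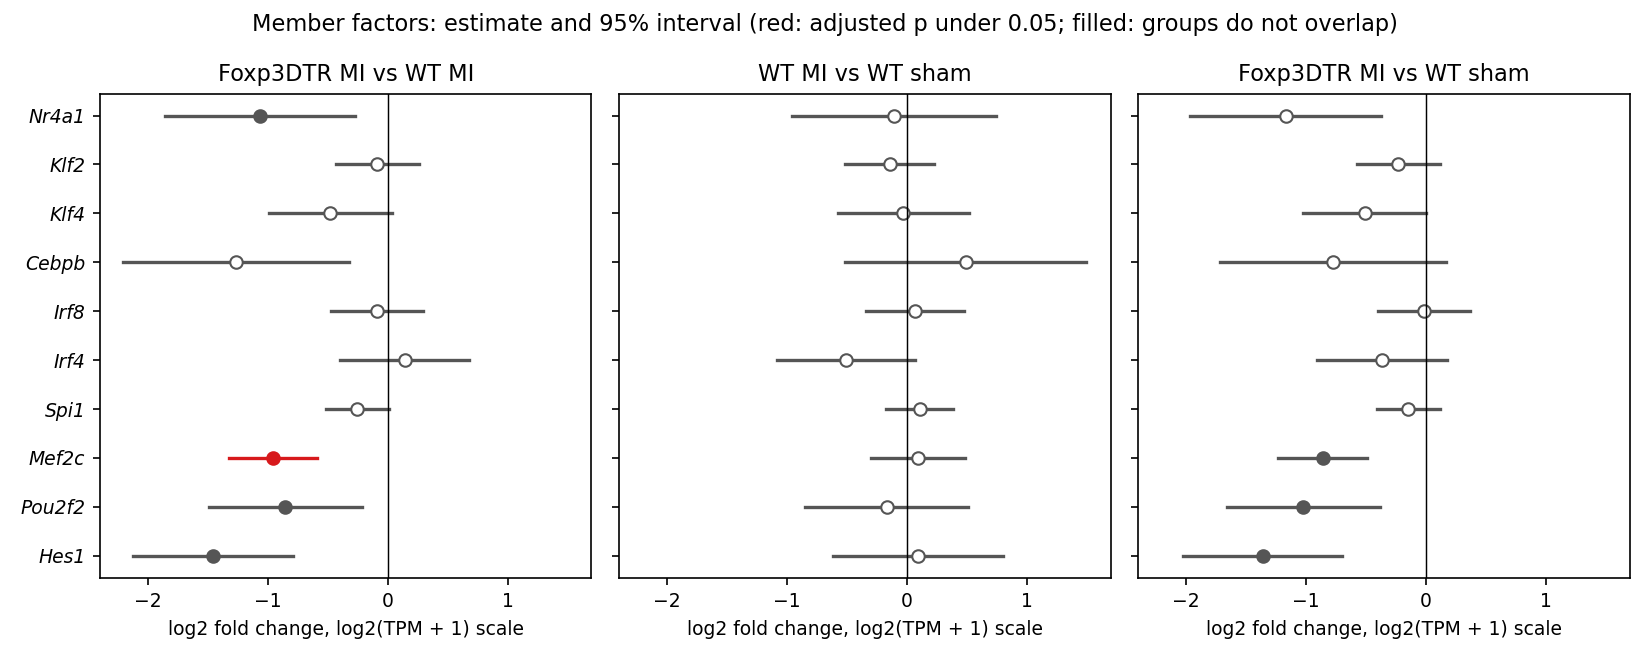
Estimated log2 fold changes of the 10 factors (horizontal axis, log2(TPM + 1) scale) with 95% intervals from limma in the 3 comparisons, red for an adjusted p under 0.05 and filled where the libraries of the groups do not overlap. Mef2c in Foxp3DTR MI against WT MI is the only red point, and the intervals of WT MI against WT sham all span 0.

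MEF2C is a transcription factor held in check by class IIa histone deacetylases and released by calcium and p38 signalling. Its gene lies on chr13:83504034-83667079 (mm10, plus strand). Mef2c measured 52.3, 42.0 and 47.1 scaled TPM in the WT MI libraries 2, 3 and 4. In the Foxp3DTR MI libraries 1 to 4 it measured 22.7, 22.5, 26.6 and 23.2. The WT sham libraries 1 to 3 had 56.4, 45.6 and 32.8. Every Foxp3DTR library lay below every WT library of either surgery, sham library 3 included, and the Foxp3DTR libraries were also the tightest group, at 23.8 ± 1.93 (SD, n = 4) against 47.1 ± 5.11 (SD, n = 3) in WT MI. The call did not survive the removal of any one of the 3 WT MI or 4 Foxp3DTR MI libraries, where the limma adjusted p was 0.0672 to 0.0985 and the log2 fold change -0.88 to -1.03. Over all 20 alternatives the adjusted p ran from 0.00413 to 0.0985. Taken relative to Spi1 in the same library, a ratio that no scaling can alter, Mef2c was at 9.09 to 10.3% in WT MI and 4.95 to 6.24% in Foxp3DTR MI.

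HES1 is a basic helix-loop-helix repressor and a direct target of Notch. The gene lies on chr16:30065357-30067796 (mm10, plus strand) and had the lowest mean level of the 10 over all libraries, with about 25 to 125 reads in each. It measured 40.4, 27.9 and 25.0 scaled TPM in WT MI and 9.65, 11.7, 13.9 and 7.58 in Foxp3DTR MI. The WT sham libraries had 36.5, 38.0 and 16.5. The highest Foxp3DTR library thus lay below the lowest WT library, and the estimate had the largest size of the 10 factors (log2 fold change -1.46, SE 0.30, 95% interval -2.12 to -0.79). It missed the threshold with a limma adjusted p of 0.0514 (range over the alternatives 0.00816 to 0.131). It passed without WT sham library 2 (0.0335) or 3 (0.00816), and in a fit of the 2 MI groups alone (0.0134). Array weights (0.0331), a filter at 5 TPM (0.0470) and leaving out both WT sham library 3 and Foxp3DTR MI library 4 (0.0217) also let it pass.

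NR4A1 (Nur77) is an immediate-early nuclear receptor without a known ligand, induced within minutes of stimulation and required for Ly6Clow monocytes. Its gene lies on chr15:101266846-101274794 (mm10, plus strand). Nr4a1 measured 248, 344 and 314 scaled TPM in WT MI and 146, 133, 162 and 132 in Foxp3DTR MI. The Foxp3DTR libraries were again close together (143 ± 14.1, SD, n = 4) and all below WT MI. The WT sham libraries were the most spread, at 339, 632 and 156, and sham library 3 fell inside the Foxp3DTR range. In limma the estimate was -1.06 on the log2 scale (SE 0.36, adjusted p = 0.169, range over the alternatives 0.00590 to 0.342). The difference passed without WT sham library 2 (0.0432) or 3 (0.0240), and in a fit of the 2 MI groups alone (0.00590).

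POU2F2 binds the octamer motif and, beyond B cells, is expressed in monocytes. The gene lies on chr7:25091115-25132460 (mm10, minus strand), and the microRNA gene Mir6537 lies within it on the same strand. Pou2f2 measured 103, 145 and 98.2 scaled TPM in WT MI and 50.2, 61.9, 71.1 and 68.4 in Foxp3DTR MI, without overlap. Sham libraries 1 to 3 had 120, 218 and 79.6, in the same order as Nr4a1, with library 2 highest and library 3 lowest. The log2 fold change against WT MI was -0.85 (SE 0.29, limma adjusted p = 0.168, range over the alternatives 0.0284 to 0.372). It passed without WT sham library 2 (0.0442) and in a fit of the 2 MI groups alone (0.0284).

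C/EBPβ is a leucine-zipper factor of emergency myelopoiesis and of Ly6Clow monocyte survival. Its intronless gene lies on chr2:167688915-167690432 (mm10, plus strand) and gave the highest mean level of the 10 in each group. In the GENCODE annotation Tmem189 overlaps it on the other strand, and no source used here states whether reads were assigned by strand. Cebpb measured 852, 924 and 1260 scaled TPM in WT MI and 463, 256, 249 and 992 in Foxp3DTR MI. Foxp3DTR library 4 lay above the lower 2 WT MI libraries, and the other 3 Foxp3DTR libraries lay below all of them and below all sham libraries (621, 962 and 597). The SD in Foxp3DTR MI, 349 around a mean of 490 (n = 4), was the widest among the 10 factors in that group. The log2 fold change of -1.27 (SE 0.43) had a limma adjusted p of 0.168 (range over the alternatives 0.0289 to 0.366), and Cebpb passed only when both WT sham library 3 and Foxp3DTR MI library 4 were left out (-1.69, adjusted p = 0.0289). Foxp3DTR library 4 also had the highest neutrophil marker sum of its group, 2832. Library 1, next after it for Cebpb, had the lowest sum, 1150. The part of neutrophil transcripts was not tested.

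Induction of Nr4a1 is classically tied to CREB sites in its promoter. The 250 bases before the annotated start are therefore shown for the 2 factors with the most such sites, Nr4a1 and Cebpb, and for 2 factors with none, Pou2f2 and Mef2c. Sequences are from RefSeq (GRCm38.p6) and run 5′ to 3′ on the strand of the gene. The core of the cAMP response element, TGACG on either strand (TGACG or CGTCA), is in capitals.
Nr4a1, chr15:101266596-101266845, plus strand: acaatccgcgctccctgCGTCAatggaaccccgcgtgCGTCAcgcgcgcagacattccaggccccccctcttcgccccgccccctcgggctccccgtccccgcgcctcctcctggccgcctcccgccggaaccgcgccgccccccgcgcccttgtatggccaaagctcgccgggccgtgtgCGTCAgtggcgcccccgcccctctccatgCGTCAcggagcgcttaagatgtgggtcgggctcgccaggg
Cebpb, chr2:167688665-167688914, plus strand: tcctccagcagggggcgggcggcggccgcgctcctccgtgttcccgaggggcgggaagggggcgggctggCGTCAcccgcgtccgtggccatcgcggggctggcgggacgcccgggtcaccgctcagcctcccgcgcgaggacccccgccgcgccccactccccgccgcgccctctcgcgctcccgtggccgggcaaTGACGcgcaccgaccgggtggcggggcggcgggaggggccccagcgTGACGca
Pou2f2, chr7:25132461-25132710, minus strand: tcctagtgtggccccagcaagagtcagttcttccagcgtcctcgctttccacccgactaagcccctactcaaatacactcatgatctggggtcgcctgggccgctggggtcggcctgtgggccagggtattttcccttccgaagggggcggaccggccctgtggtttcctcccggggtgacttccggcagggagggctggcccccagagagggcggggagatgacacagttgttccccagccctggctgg
Mef2c, chr13:83503784-83504033, plus strand: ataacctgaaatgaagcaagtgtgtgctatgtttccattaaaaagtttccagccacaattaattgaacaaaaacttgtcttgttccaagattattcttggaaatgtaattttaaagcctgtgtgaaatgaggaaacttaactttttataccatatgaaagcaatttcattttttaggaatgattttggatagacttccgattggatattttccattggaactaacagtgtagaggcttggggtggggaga
The Nr4a1 window held 4 cores and the Cebpb window 3, Klf2 and Klf4 held 1 each, and none was found before any annotated start of Pou2f2, Mef2c, Irf8 or Irf4. Of 32817 RefSeq promoters, 17.7% held at least 1 core, 0.689% at least 3 and 0.137% at least 4. A promoter was matched for 8 of the 10 genes, all but Spi1 and Hes1. Among the factors whose libraries did not overlap between Foxp3DTR MI and WT MI, the count of cores thus ran from 0 to 4. Of the other motifs searched on both strands, the GAS pattern TTCNNNGAA of STAT factors occurred 2 times before Irf8 and 1 time before Mef2c, against 7.01% of promoters with any, and the CACCC box bound by KLF factors was in 52.0% of promoters. The RBPJ site GTGGGAA, in 5.42% of promoters, was in none of the members' windows.

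The Krüppel-like factors showed smaller differences. Klf2 (chr8:72319062-72321654, mm10), whose product restrains inflammatory activation, measured 303, 362 and 370 scaled TPM in WT MI and 263, 321, 364 and 355 in Foxp3DTR MI, with the 2 ranges overlapping. Its log2 fold change was -0.09 (95% interval -0.43 to 0.26, limma adjusted p = 0.808). Klf4 (chr4:55527137-55532475), needed for monocyte differentiation, measured 142, 91.2 and 115 scaled TPM in WT MI and 85.4, 86.8, 64.2 and 93.1 in Foxp3DTR MI. Foxp3DTR library 4 exceeded the lowest WT MI library, and the estimate of -0.48 (95% interval -0.99 to 0.03) did not pass (limma adjusted p = 0.311).

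The lineage factors PU.1, IRF8 and IRF4 did not pass the test either. Spi1 (chr2:91096797-91115756, mm10) ran from 364 to 509 scaled TPM over all libraries, the lowest ratio of highest to lowest level among the 10 factors. It measured 509, 463 and 481 in WT MI and 374, 364, 427 and 469 in Foxp3DTR MI, where library 4 reached into the WT MI range (log2 fold change -0.25, 95% interval -0.51 to 0.01, limma adjusted p = 0.297). Irf8 (chr8:120736358-120756692), which drives monocyte over granulocyte fate and is spanned by the gene model Gm20388, measured 178, 216 and 127 scaled TPM in WT MI and 172, 156, 173 and 142 in Foxp3DTR MI. The Foxp3DTR libraries lay inside the WT MI range, with a log2 fold change of -0.09 (95% interval -0.47 to 0.30). Irf4 (chr13:30749258-30766927) was the only factor with a positive estimate, 0.14 (95% interval -0.40 to 0.68). It measured 21.4, 36.7 and 18.6 scaled TPM in WT MI and 31.1, 33.6, 28.0 and 18.5 in Foxp3DTR MI, and the 2 ranges were nearly the same. In both groups library 4 was the lowest for Irf8 and Irf4.

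The order of levels was similar in the 3 groups. In WT MI, mean scaled TPM ran from Cebpb (1012) and Spi1 (484) through Klf2 (345), Nr4a1 (302), Irf8 (174), Klf4 (116), Pou2f2 (115) and Mef2c (47.1) to Hes1 (31.1) and Irf4 (25.6). The ranges of the libraries overlapped between the neighbours Klf2 and Nr4a1, Irf8 and Klf4, Klf4 and Pou2f2, and Hes1 and Irf4, and the other 5 pairs of neighbours were apart. In Foxp3DTR MI, Irf8 (161) stood above Nr4a1 (143) and Irf4 (27.8) above Mef2c (23.8), with Hes1 (10.7) last. The ranges still overlapped within both of these pairs, although Irf8 exceeded Nr4a1 in each of the 4 libraries. Relative to Spi1, Nr4a1 was at 48.6 to 74.3% in WT MI and 28.1 to 39.0% in Foxp3DTR MI, and Hes1 at 5.21 to 7.94% and 1.62 to 3.25%.

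WT MI was compared with WT sham to ask how these cells differ after infarction. The labels name no toxin for these libraries, so a difference in DTX between the groups could not be told apart from infarction. None of the 10 factors passed the test in limma and none had an unadjusted p under 0.05, where 0% of the 12921 genes passed and 595 genes (4.6%) had an unadjusted p under 0.05. The libraries of the 2 groups overlapped for all 10 factors, where 6.87% of genes did not overlap. The estimates were positive for 5 factors and negative for 5, near the 50.3% of all genes below 0, and those of greatest size were -0.51 for Irf4 (95% interval -1.09 to 0.07) and 0.49 for Cebpb (-0.52 to 1.50). Irf4 measured 38.5, 33.1 and 34.4 scaled TPM in WT sham, so that 2 of the 3 WT MI libraries lay below all sham libraries and library 3 between them. The interval of Nr4a1 was -0.96 to 0.74.

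Foxp3DTR MI was also set against WT sham. This comparison uses the same Foxp3DTR libraries as the one above, so its values are given side by side and not as a second test. All 10 estimates were negative, against 51% of all genes, and none passed the limma test, where 0.116% of genes fell. Mef2c had -0.86 (adjusted p = 0.0572), Hes1 -1.36 (0.0772), Pou2f2 -1.02 (0.123) and Nr4a1 -1.17 (0.142), against -0.96, -1.46, -0.85 and -1.06 relative to WT MI. The groups did not overlap for Mef2c, Hes1 and Pou2f2, where 8.43% of genes were lower without overlap. WT sham library 3, the one with high T cell, plasma cell and neutrophil marker sums, was the lowest sham library for 7 of the 10 factors, among them these 4. Without it, all 4 passed in limma, with adjusted p of 0.00497 for Mef2c, 0.00655 for Hes1, 0.0197 for Pou2f2 and 0.00571 for Nr4a1 (range over the alternatives 0.00497 to 0.395 for the 4).

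**Figure D3:**
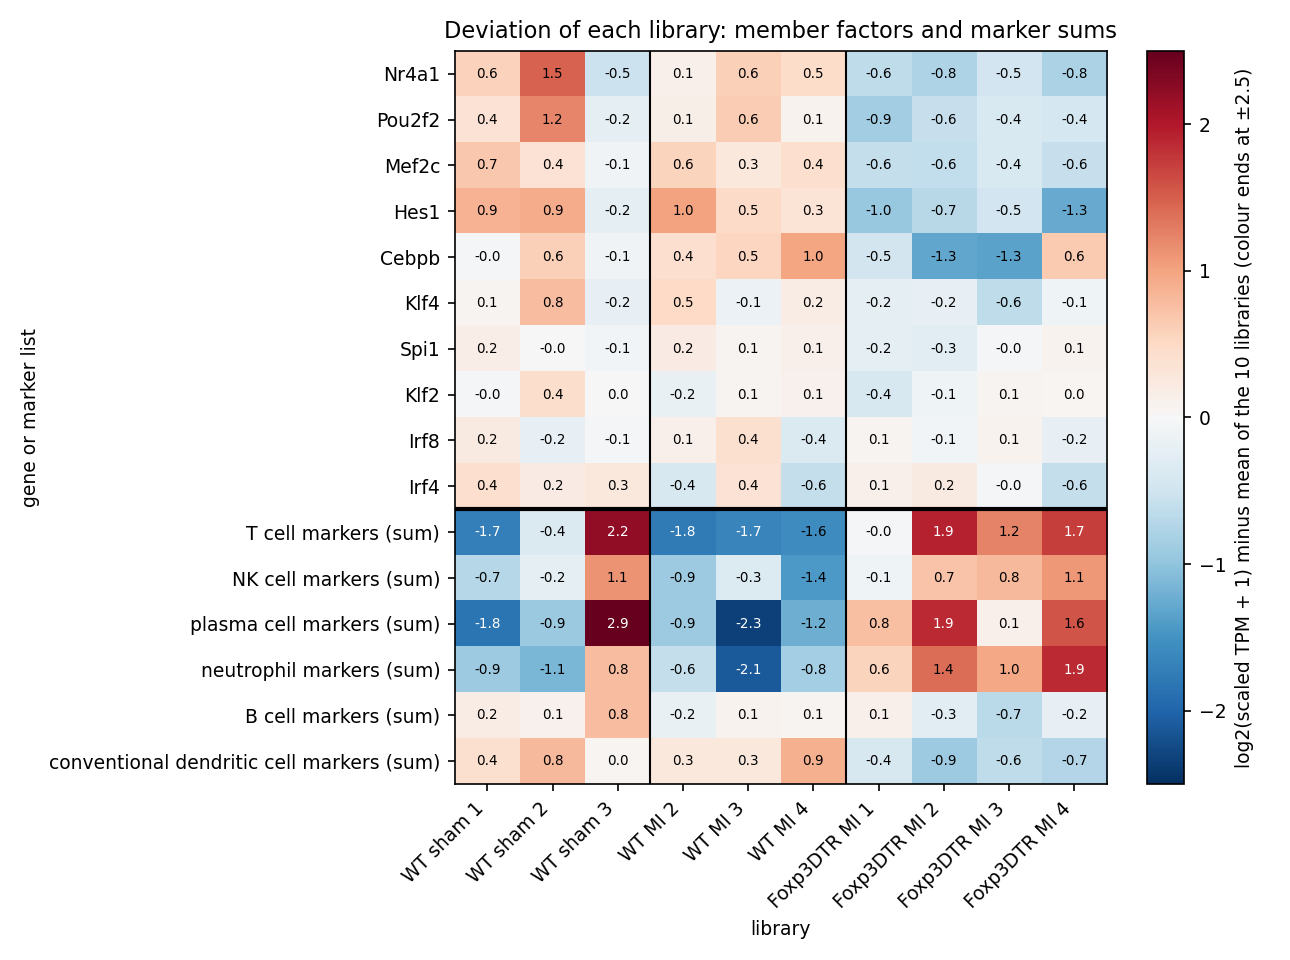
Deviation of each library (columns, grouped) from the mean of the 10 libraries on the log2(scaled TPM + 1) scale, for the 10 factors (upper rows) and the summed markers of other cell types (lower rows). Nr4a1, Pou2f2, Mef2c and Hes1 are negative in WT sham library 3 and in all 4 Foxp3DTR MI libraries. The T cell sum was 182 scaled TPM in WT sham library 3 and 37.1 to 147 in Foxp3DTR MI. Mef2c and Hes1 were higher in WT sham library 3 than in every Foxp3DTR MI library. The part of T cells was not tested.

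How the factors varied together over the 10 libraries was described by Pearson's r on log2 levels, with no test, since the libraries share group differences, scaling and cell mixture. Mef2c and Hes1 had r = 0.96, and 0.81 for deviations from group means. Nr4a1 and Pou2f2 had 0.95 and 0.88. Irf8 and Irf4 had 0.57 and 0.76, and Cebpb and Irf4 had -0.42 and -0.64. Among 10136 genes with a mean of 5 scaled TPM or more, the genes most like Nr4a1 were Maml3, which encodes a Mastermind-like co-activator (r = 0.98), Eif4g3 (0.98) and Scel (0.96). Those most like Pou2f2 were Nfatc1, the calcium-regulated factor (0.98), Rilp (0.98) and Madd (0.97). Those most like Mef2c were Gm5150 (0.97), Tmem176a (0.97) and Ccdc109b (0.97), and those most like Hes1 were Nxpe4 (0.97), the adhesion molecule gene Alcam (0.97) and the kinase gene Prkch (0.96). Of the other factors, Spi1 was closest to Mapk14, the p38α kinase gene (0.97), Klf2 to Zswim4 (0.95), Klf4 to Mex3d (0.94), Cebpb to Rpp21 (0.94), Irf8 to Tgs1 (0.94) and Irf4 to Mga (0.94).

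The wider families had estimates of both signs. Of 74 other listed factors, 67 were tested in Foxp3DTR MI against WT MI, with 32 positive and 35 negative estimates and a median of -0.02. In limma 2 of them rose and 1 fell, against 0.689% and 0.433% of all genes. Tfec, a MiT-family factor of macrophages, measured 41.7, 27.6 and 31.1 scaled TPM in WT MI and 116, 122, 101 and 123 in Foxp3DTR MI, and rose by 1.77 on the log2 scale (SE 0.27, adjusted p = 0.0209). Bcl6, a repressor, fell, with a range of 115 to 176 in WT MI and of 72.5 to 85.1 in Foxp3DTR MI (-0.87, SE 0.17, adjusted p = 0.0472). For both genes the libraries did not overlap. The call of Tfec ended without any one WT MI or Foxp3DTR MI library (log2 fold change 1.65 to 1.94 with 1 library left out, limma adjusted p up to 0.0742 over the alternatives). That of Bcl6 ended on leaving out any one Foxp3DTR MI library, library 2 or 3 of WT MI, or library 1 of WT sham (-0.75 to -1.05, adjusted p up to 0.136).

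**Figure D4:**
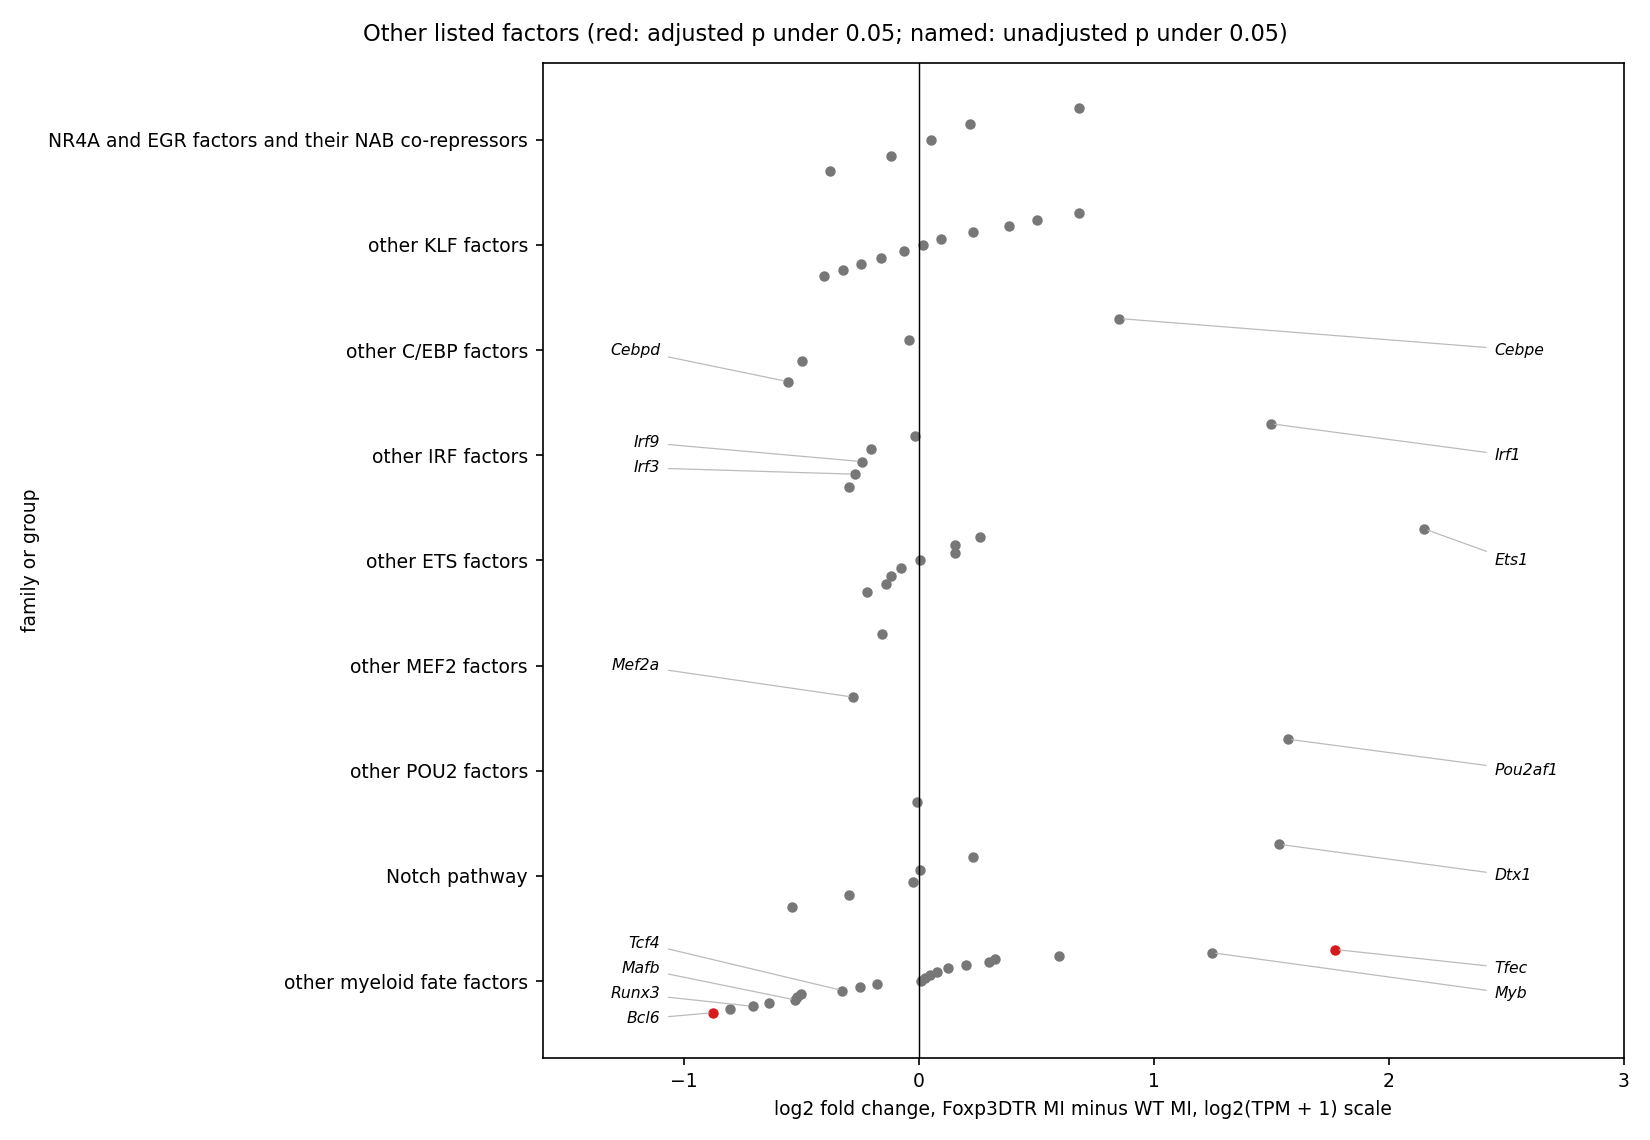
Estimated log2 fold changes (horizontal axis) of tested factors of related families in Foxp3DTR MI against WT MI, 1 point a gene, by family or group (vertical axis), red for a limma adjusted p under 0.05, with 1 tested factor not drawn. Tfec is red on the right and Bcl6 on the left, and the KLF, ETS and Notch points lie on both sides of 0.

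None of the closest relatives of the members passed. By family, positive and negative estimates were 3 and 2 for NR4A, EGR and NAB genes, 6 and 5 for other KLF factors, 1 and 3 for C/EBP, 1 and 5 for IRF, 5 and 4 for ETS, 0 and 2 for MEF2 and 3 and 3 for the Notch pathway. Nr4a2, which encodes a related receptor, had 1.88 to 6.44 scaled TPM in WT MI and 1.17 to 5.72 in Foxp3DTR MI, far below Nr4a1. Its log2 fold change was -0.38 (SE 0.73), and it was at 2.83, 33.7 and 2.95 in WT sham libraries 1 to 3. Egr1, an immediate-early gene like Nr4a1, had 0.68 (SE 0.42). Among the other KLF factors, Klf13 had -0.32 (SE 0.17) and the low Klf16, at 3.62 to 8.43 scaled TPM over all libraries, -0.40 (SE 0.20). Among C/EBP factors, Cebpd had -0.56 (SE 0.19) and Cebpe, the granulocyte factor, 0.85 (SE 0.30). Irf1, the interferon-γ responsive factor, had 85.1, 179 and 87.5 scaled TPM in WT MI and 264, 275, 439 and 300 in Foxp3DTR MI, without overlap (1.50, SE 0.36, limma adjusted p = 0.0725). Irf9, a factor of interferon signalling, was lower in each Foxp3DTR library (86.6 to 104) than in any WT MI library (109 to 121), at -0.24 (SE 0.09, limma adjusted p = 0.213). Mef2a, more abundant than Mef2c at 206 to 261 scaled TPM in WT MI, had -0.28 (SE 0.12, limma adjusted p = 0.250), and Pou2f1 -0.01 (SE 0.13). The Notch receptor gene Notch2 measured 240 to 292 scaled TPM in WT MI and 243 to 291 in Foxp3DTR MI, with a log2 fold change of 0.01 (95% interval -0.22 to 0.23). Rbpj, the DNA-binding partner of Notch, had 0.23 (SE 0.17) and Hes6 -0.30 (SE 0.15). Several factors with positive estimates are known from lymphocytes: Ets1 (2.15, SE 0.59), Pou2af1 (1.57, SE 0.67) and the Notch modulator gene Dtx1 (1.53, SE 0.54). None of these 3 passed, and in sham library 3 they were at 32.3, 6.67 and 5.36 scaled TPM, above both other sham libraries, beside its T cell marker sum of 182. In WT MI against WT sham none of the 67 passed, and in Foxp3DTR MI against WT sham, where 0.317% of genes rose, Tfec did so (2.02, SE 0.27, limma adjusted p = 0.0210).

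Genes known as targets of the factors or as part of the Ly6Clow programme were read from a list of 41, of which 40 were tested. Of 17 genes of Ly6Clow conversion, 3 fell and 1 rose in Foxp3DTR MI against WT MI, where 0.433% of all genes fell and 0.689% rose. Their median was -0.41, against 0.00013 over all genes. Estimates were negative for 12 and positive for 5. Without overlap, 8 were lower and 2 higher, against 9.05% and 9.95% of all genes. Fcgr4, an Fc receptor gene, was 1 of these 2 and did not pass. It had 82.4 to 102 scaled TPM in WT MI and 130 to 224 in Foxp3DTR MI. Cx3cr1, the fractalkine receptor, measured 291, 344 and 163 scaled TPM in WT MI and 44.6, 32.5, 50.6 and 43.1 in Foxp3DTR MI (log2 fold change -2.56, SE 0.32, limma adjusted p = 0.0151). Adgre4, an adhesion receptor gene of Ly6Clow monocytes, fell, with 168 to 215 in WT MI and 55.5 to 68.5 in Foxp3DTR MI (-1.61, SE 0.29, adjusted p = 0.0372). Ace, which encodes angiotensin-converting enzyme, fell, with 175 to 267 in WT MI and 68.7 to 88.2 in Foxp3DTR MI (-1.53, SE 0.28, adjusted p = 0.0413). In all 3 genes the highest Foxp3DTR library lay below the lowest library of either WT group. The calls of Adgre4 and Ace ended without any one WT MI or Foxp3DTR MI library (limma adjusted p up to 0.104 and 0.121 over the alternatives), and that of Cx3cr1 ended without WT MI library 2 or 3 or Foxp3DTR MI library 3 (up to 0.0646). Cd274, which encodes PD-L1, rose, with 12.6 to 16.9 scaled TPM in WT MI and 39.3 to 68.3 in Foxp3DTR MI (1.77, SE 0.25, adjusted p = 0.0200), a call that ended without any one WT MI library or Foxp3DTR MI library 1, 2 or 3 (adjusted p up to 0.0683). With 1 library left out, log2 fold changes ran from -2.88 to -2.34 for Cx3cr1, -1.71 to -1.53 for Adgre4, -1.71 to -1.41 for Ace and 1.65 to 1.92 for Cd274.

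No gene on the lists of KLF2, PU.1, IRF8, C/EBPβ or IRF4 targets passed. Of the 3 KLF2 targets, S1pr1, the sphingosine phosphate receptor gene of lymphocyte egress, had 1.59 (SE 0.45) and was higher in each Foxp3DTR library than in any WT MI library. Thbd, the thrombomodulin gene, had -0.83 (SE 0.22) and was lower in each. S1pr1 was also at 10.9 scaled TPM in sham library 3 against 1.89 and 1.90 in the other sham libraries. Csf1r, the CD115 gene used in the sort and a PU.1 target, measured 696 to 772 scaled TPM in WT MI and 469 to 613 in Foxp3DTR MI (-0.49, SE 0.17, limma adjusted p = 0.175). Tyrobp, the DAP12 adaptor gene and also a PU.1 target, was at 2605 to 3151 in WT MI and 1610 to 2431 in Foxp3DTR MI (-0.56, SE 0.21). PU.1 targets had 1 positive and 6 negative estimates, and all 5 IRF8 targets were negative, where 50% of all genes were, among them the cystatin gene Cst3 (-0.53, SE 0.23). Il1b, a C/EBPβ target, was at 38.3 to 86.3 in WT MI and 16.0 to 27.4 in Foxp3DTR MI (-1.25, SE 0.44, adjusted p = 0.182), whereas Lcn2, a C/EBPβ target and neutrophil marker, was at 4.81 to 51.3 and 73.3 to 158 (2.40, SE 0.80). Of 3 tested IRF4 targets, Cd209a had -1.43 (SE 0.56) and Ccl17 0.47 (SE 0.58). In Foxp3DTR MI against WT sham, Cx3cr1 (-2.35) and Cd274 (1.61) were the 2 target genes past the limma threshold, at adjusted p of 0.0241 and 0.0375. In WT MI against WT sham none passed.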

How the data were processed

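RNA was measured in 10 libraries, 20 to 50 pg of RNA each, read as single 50 bp ends. Per the submitters' processing notes, CASAVA 1.4, cutadapt 1.1, STAR 2.5 and StringTie 1.3.0 were used with mm10. The deposited tables of the authors give TPM, FPKM and coverage per gene, with no counts, so no count test was run. Reads per library were inferred from coverage and FPKM, whose ratio was constant within 1% for 85.0 to 85.3% of entries. Groups came from the sample labels. TPM were summed per symbol, divided by median-of-ratios factors and tested as log2(TPM + 1) with limma 3.58.1 in R 4.3.3 (variance trend, 3 group means over all 10 libraries, two-sided) for the 12921 symbols that reached 1 TPM in 3 or more libraries, with Benjamini-Hochberg adjustment over all of them and a threshold of 0.05. Fold changes on this scale understate those of low genes. The method was tested on simulated data. Alternatives were other scalings, pseudocounts and filters, array weights, a replicate block, fits of 2 groups and leaving out each library, and, added after seeing the data, leaving out both WT sham library 3 and Foxp3DTR MI library 4. Named were all 10 factors, the other listed genes that passed or had the 2 lowest p of their list in Foxp3DTR MI against WT MI, and, of the 3 genes most like each factor, all 3 for the 4 factors without overlap and the first for the others. Nr4a2, Notch2, Itgam, Ccr2, Ly6c2, Lyz2, Tmem189, Camp, S100a9, Ngp, Ly6d, Cd79b and Dpp4 were named after their values were seen. The factors and lists were chosen with earlier results of these data known. Ly6g was not analysed here, and some listed genes are not reported. The 45 library pairs correlated at 0.914 to 0.974 and none was identical.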

Additional observations from a re-analysis of the deposited data

Results flagged for a closer look

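Of 55 sets of values tested for a sample far from the others of its group, 1 stood out, where chance gives about 1 in 20. All 55 were of Foxp3DTR MI, since the WT groups, at 3 libraries each, were too small for this test and were not screened. Mef2c in Foxp3DTR MI library 3 was at 26.6 scaled TPM, against 22.5 to 23.2 in the other 3 libraries of that group. It remained below every WT library.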

How the results depend on the processing

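In Foxp3DTR MI against WT MI, 1 factor, 3 other factors, 4 target genes and 145 of all genes passed. These counts were 0, 0, 1 and 22 without the filter on low values. A filter at 5 TPM gave 2 factors, array weights 2 factors and 398 genes, TPM as deposited 527 genes (488 of them higher, against 89 of 145), a fit of the 2 groups alone 4, 6, 11 and 579, and leaving out both WT sham library 3 and Foxp3DTR MI library 4 3 factors and 257 genes. Leaving out 1 library at a time gave 0 to 4 factors, 0 to 5 other factors, 0 to 7 targets and 0 to 431 genes, with 0 factors without any one WT MI or Foxp3DTR MI library, 4 without WT sham library 2 and 3 without library 3. In WT MI against WT sham, 3 genes passed in a fit of 2 groups, 1 with both libraries left out and 0 to 2 with 1 left out. In Foxp3DTR MI against WT sham, 0, 1, 2 and 56 passed. Quantile normalization, the 5 TPM filter and array weights each gave 1 factor, and both libraries left out gave 4, 3, 5 and 280. No filter gave 0 other factors, 0 targets and 11 genes, 2 groups alone 0, 1 and 10, a pseudocount of 0.1 23 genes and array weights 87. Leaving out 1 library gave 0 to 4, 0 to 8, 0 to 12 and 3 to 636, with 4 factors without WT sham library 3.

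For deviations from group means, r ran from -0.19 to 0.19 over 8 pairs of same-numbered libraries, 1 of them over 0.1. Over 25 pairs with other numbers it ran from -0.20 to 0.18, with 3 over 0.1. Such deviations sum to 0 within each small group, so they cannot settle whether the numbers pair libraries. With the replicate block, 0 factors and 81 genes passed in Foxp3DTR MI against WT MI, and 0 other factors, 1 target and 16 genes in Foxp3DTR MI against WT sham.

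The sign turned for the following estimates. In Foxp3DTR MI against WT MI, TPM as deposited, which shift the median of all genes by 0.22, gave 0.15 for Klf2, 0.16 for Irf8, 0.082 for Mef2d, 0.12 for Nab1 and 0.22 for Pou2f1, which had 0.031 with array weights and 0.068 with both libraries left out. With 1 library left out, Klf2 ran from -0.18 to 0.011, Irf8 from -0.30 to 0.087, Irf4 from -0.048 to 0.42 and Pou2f1 from -0.064 to 0.069. In WT MI against WT sham, array weights gave 0.13 for Nr4a1, 0.074 for Klf4 and 0.059 for Pou2f2, TPM as deposited -0.11 for Irf8, -0.075 for Spi1, -0.083 for Mef2c and -0.081 for Hes1, quantile normalization -0.016 for Irf8 and -0.040 for Spi1, and both libraries left out -0.11 for Mef2c and -0.28 for Hes1. With 1 left out, Nr4a1 ran from -0.63 to 0.38, Klf2 from -0.23 to 0.0077, Klf4 from -0.24 to 0.25, Irf8 from -0.10 to 0.28, Mef2c from -0.11 to 0.27, Pou2f2 from -0.51 to 0.21 and Hes1 from -0.28 to 0.29. In Foxp3DTR MI against WT sham, Irf8 had 0.046 as deposited, 0.094 with the replicate block, 0.026 with both left out and -0.11 to 0.10 with 1 left out. The signs of Nr4a1, Klf4, Cebpb, Spi1, Mef2c, Pou2f2 and Hes1 in Foxp3DTR MI against WT MI held in all 20 alternatives. The cause of these changes was not tested. At about 25 to 125 reads, depth limits the precision of Hes1. Reads could not be inferred for Mef2c, Irf8 and Pou2f2, whose coverage did not follow FPKM, so the limit set by depth is not known for them.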
